A study of Saccharomyces cerevisiae with 8 samples.

Results

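The 40 genes described here encode the machinery that carries vesicles between the endoplasmic reticulum (ER) and the Golgi in budding yeast, Saccharomyces cerevisiae. They were taken from a list and sorted by role into 9 COPII coat genes, 7 cargo and retrieval receptors, 9 genes of the COPI coat and its ArfGAPs, 6 tethers with their Rab GTPase, and 9 SNAREs with the proteins that recycle them. All 40 were found by symbol among the 6465 genes that gave enough signal on the arrays. Each gene had 2 probes, and 78 of the 80 probes stood well above background in all 16 channel measurements.

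Proteins made in the ER leave it in vesicles that the COPII coat buds from exit sites, with receptors that load the cargo into the bud. COPI vesicles return receptors and escaped ER proteins from the Golgi to the ER. Tethers and the Rab GTPase capture an arriving vesicle, SNARE proteins fuse it with its target, and the fused SNAREs are taken apart for reuse. Yeast secretion mutants named many of these genes, and most of the core components are needed for growth.

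RNA of 3 strains was compared on 8 two-colour Agilent arrays, with 4 arrays for each comparison. The double mutant, SEY6210 with pdr5-∆1::hisG and yor1-1::hisG, lacks functional copies of the ABC transporter genes PDR5 and YOR1. It was set against wild type on 4 arrays, and on the other 4 against the triple mutant, which carries pdr1::kanMX4 as well and so lacks the transcription factor Pdr1 of pleiotropic drug resistance. Wild type was SEY6210 itself, a MATα strain whose other alleles (leu2-3,-112, ura3-52 and lys2-801, then trp1-∆901, his3-∆200 and suc2-∆9 with GAL) belong to the background of all 3 strains. Cells grew in YPD, the rich glucose medium, at 30 °C to an OD600nm of about 0.6. By the labels, the double mutant carried Cy5 on arrays 1 and 3 and Cy3 on arrays 2 and 4 of each comparison. The labels name 1 strain for each genotype, and they do not state separate cultures for the arrays, in which case p-values reflect the spread between arrays and possibly technical spread alone.

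Mean spot intensities before background correction had medians between 117 and 1042 in Cy3 and between 402 and 1300 in Cy5. In a channel, 85.7 to 98.7% of probes were well above background. On the arrays with wild type, PDR5 was lower in the double mutant (log2 ratio -1.46, adjusted p = 0.000165) and YOR1 was higher (1.94, adjusted p = 4.21e-06). Both genes stayed well above background in the double mutant, and whether their probes lie inside the disrupted stretch is not given in the sources used here. On the arrays with the triple mutant, PDR1 went against the labels. It was not well above background in the channel labelled double mutant on any of the 4 arrays, at the 0.0535th to 3.21st percentile of all probes, against the 32.6th to 47.6th percentile in the channel labelled triple mutant. For that reason the channels of this second comparison are named by their labels throughout, and every sign in it would turn if the 2 labels were exchanged.

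Against wild type, most vesicle traffic genes were slightly higher in the double mutant, and ERV29, the receptor that loads soluble secretory proteins into COPII vesicles, stood apart. The median log2 ratio of the 40 genes was 0.098, while it was -0.0077 over all 6465 genes. Of the 40 genes, 34 lay above 0 and 6 below, so that 85% were above 0, compared with 47.3% of all genes. The range ran from -0.14 for YPT1 to 0.66 for ERV29. On the single arrays the median of the 40 genes was 0.082, 0.15, 0.051 and 0.12, above 0 on each array and in both dye orientations.

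ERV29, SEC23 and SEC13 rose at a Benjamini-Hochberg adjusted p below 0.05 in the limma fit, and 0 of the 40 genes fell. The count of 3 became 5 without array 4 of this comparison (ERV29, SFB2, SFB3, RET3 and TIP20), where 379 of all genes passed as higher. It became 1, ERV29, without any other of the 8 arrays. In the main fit of all 8 arrays, 3.23% of all genes passed that threshold as higher and 4.97% as lower. At an unadjusted p below 0.05, 12 of the 40 genes were higher and 0 were lower, against backgrounds of 10.7% and 13.9%. Above 0 on every array were 11 of the 40 genes and below 0 on every array 0, where all genes gave 11.4% and 14.0%. Of all genes that passed, 209 of 530 were higher, a split that became 31 of 40 with the authors' processed signals and 28 of 54 with median centring.

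**Figure D1:**
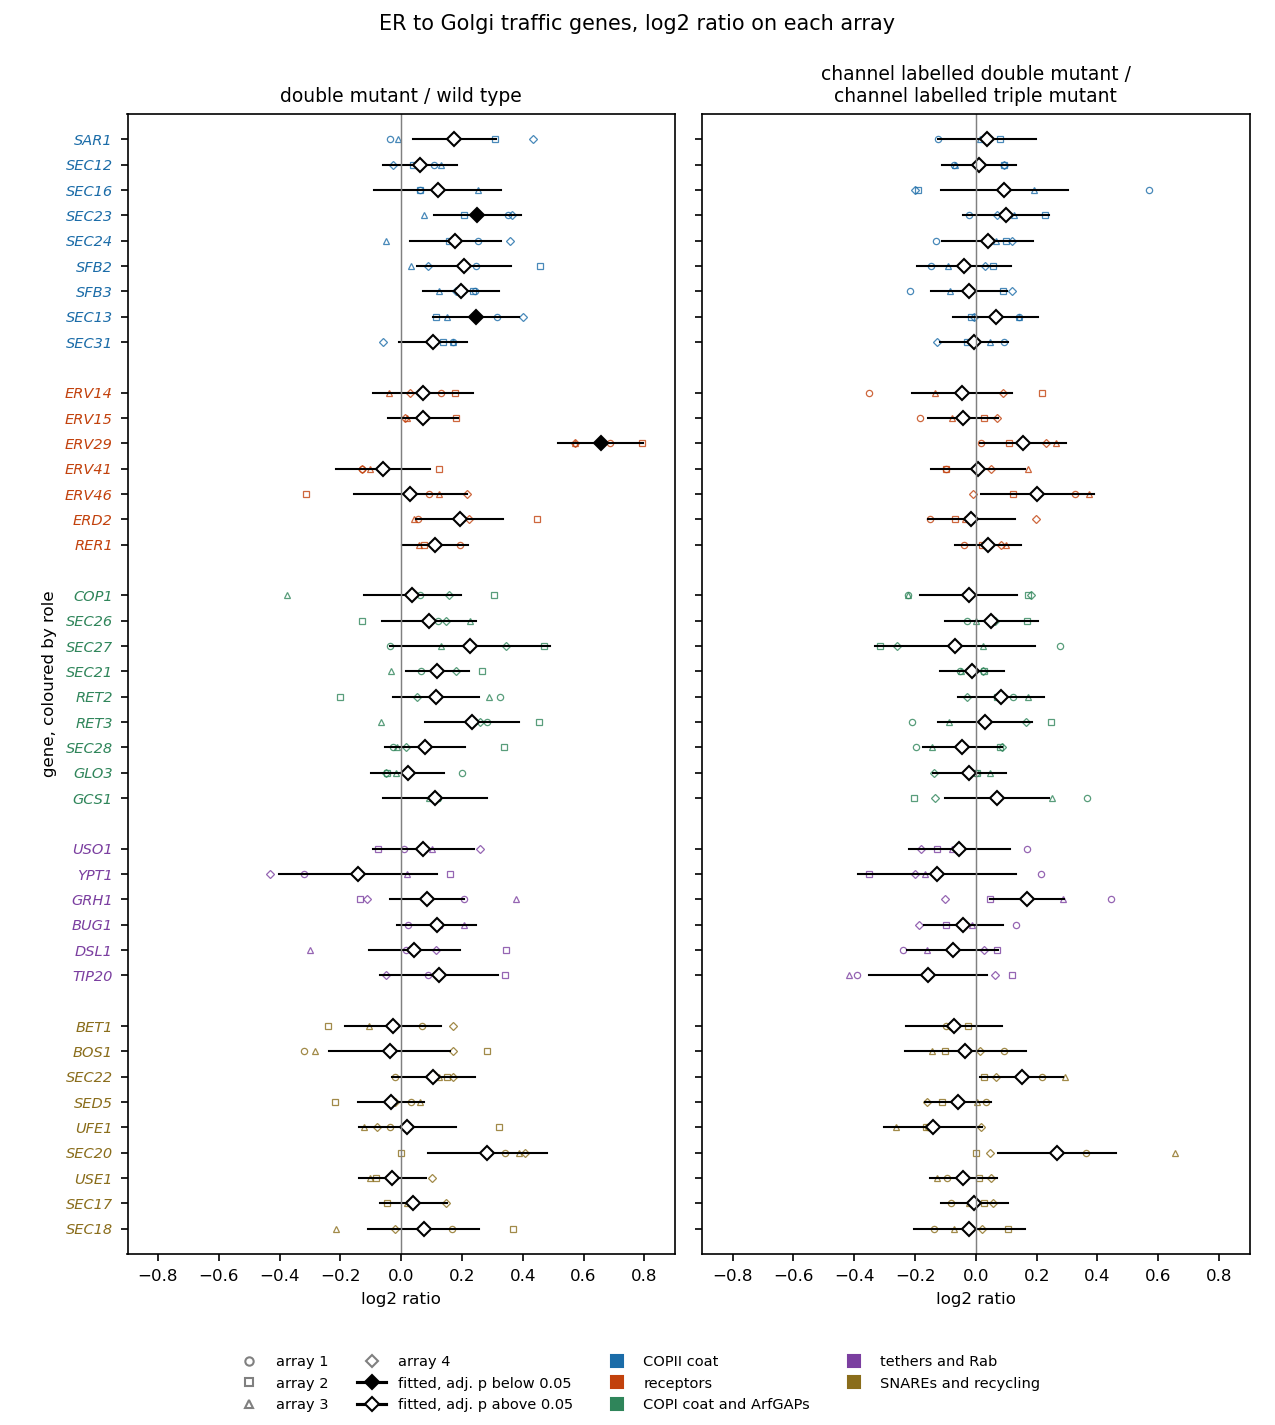
Log2 ratios of the 40 genes (horizontal axis) on each array (small open symbols) with the fitted value (diamond) and its 95% confidence interval (line), grouped by role. Filled diamonds passed an adjusted p of 0.05: ERV29, SEC23 and SEC13 in the comparison with wild type on the left, and 0 genes in the comparison of the channels labelled double and triple mutant on the right.

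The 9 COPII coat genes all had fitted ratios above 0 in the double mutant, with a median of 0.18 and a range from 0.063 to 0.25. The medians of the coat genes on the 4 arrays were 0.24, 0.16, 0.12 and 0.18. SEC23 and SEC13 passed the threshold, where 3.23% of all genes passed as higher. At an unadjusted p below 0.05, 6 of the 9 were higher, against 10.7% of all genes.

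SEC23 encodes the inner coat subunit that activates GTP hydrolysis by Sar1. Its signal in the double mutant was 3995, 11377, 7194 and 4722 intensity units on arrays 1 to 4, against 3131, 9859, 6833 and 3663 units in wild type. The double mutant channel was the brighter on each of the 4 arrays, although array 3 differed by little. The log2 ratios were 0.35, 0.21, 0.074 and 0.37, and the fitted ratio was 0.25 (1.19-fold, SE 0.062, adjusted p = 0.0471).

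SEC13 encodes an outer coat subunit that forms the vesicle cage with Sec31 and that is also part of the nuclear pore. The double mutant had 3198, 8571, 6523 and 3859 units on the 4 arrays, against 2569, 7909, 5873 and 2924 units in wild type. Here too the double mutant was the brighter on every array, with log2 ratios of 0.32, 0.12, 0.15 and 0.40. The fitted ratio was 0.25 (1.19-fold, SE 0.061, adjusted p = 0.0468).

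The calls of both coat genes lay close to the threshold. Leaving out any 1 of the 8 arrays ended them, with adjusted p between 0.0571 and 0.177 for SEC23 and between 0.0512 and 0.162 for SEC13, and over 23 alternative settings the SEC23 call was lost in 20 and the SEC13 call in 19. The sign stayed positive for both genes in all 23.

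Among the other coat genes, SFB2 and SFB3, which encode homologues of the cargo-binding subunit Sec24, had fitted ratios of 0.21 (adjusted p = 0.104) and 0.20 (adjusted p = 0.066). SFB3 varied least of the coat genes between arrays, with 0.24, 0.24, 0.12 and 0.18 (SD 0.056). SEC24 itself had 0.18, SAR1, the GTPase that starts coat assembly, 0.175, and SEC16, the scaffold of the exit sites, 0.12. SEC31, the partner of Sec13 in the cage, had 0.10. SEC12, the membrane-bound exchange factor that activates Sar1, had the lowest fitted ratio of the coat at 0.063, with 0.11, 0.039, 0.13 and -0.026 on the arrays. None of these 7 genes passed the threshold.

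**Figure D2:**
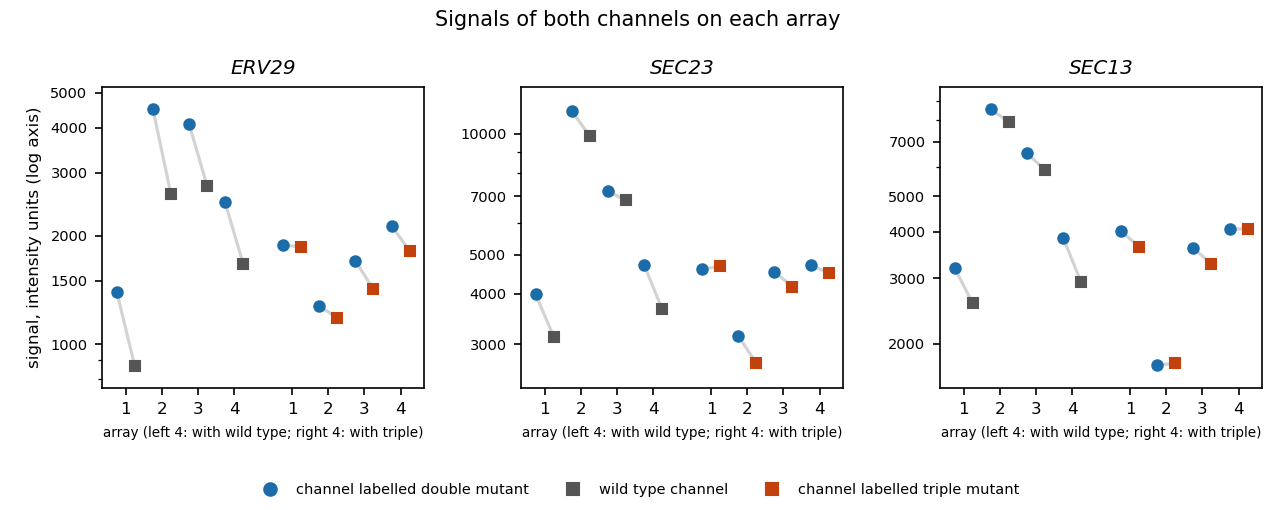
Signal in intensity units on a log axis of the channel labelled double mutant (circles) and of the other strain's channel on the same array (squares, joined by a line) for ERV29, SEC23 and SEC13. The left 4 arrays of each panel are those with wild type and the right 4 those with the triple mutant. In all 3 genes the double mutant circle lies above its wild type square on each of the 4 arrays.

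ERV29 encodes the receptor that carries soluble cargo, such as the precursors of alpha factor and of carboxypeptidase Y, into COPII vesicles. Its signal in the double mutant was 1400, 4524, 4106 and 2478 units on arrays 1 to 4, against 870, 2613, 2760 and 1668 units in wild type. The double mutant was the brighter on each array, in both dye orientations. The log2 ratios were 0.69, 0.79, 0.57 and 0.57 (mean 0.66 ± 0.11, SD, n = 4), and the fitted 1.58-fold rise had a 95% confidence interval of 0.52 to 0.80 on the log2 scale (SE 0.061, adjusted p = 0.00117).

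The second probe of ERV29 gave 0.65, 0.76, 0.57 and 0.49, with a mean of 0.62. The dye term of the fit was -0.020 for this gene. The ERV29 call was lost in 3 of 23 alternative settings while its ratio stayed between 0.59 and 0.73. Those settings were the authors' processed signals (adjusted p = 0.116), median centring (adjusted p = 0.0537) and a fit on the 4 arrays alone (adjusted p = 0.0628), and over all alternatives the adjusted p ran from 0.000408 to 0.116. Leaving out any 1 array kept the call.

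ERV29 lies near YOR1, with BGL2 and UPA1 between the 2 genes in the RefSeq annotation of the R64 assembly. The neighbours were chosen after their values were seen. YOR1 had log2 ratios of 2.04, 2.15, 1.76 and 1.83 in the double mutant against wild type. The genes between them did not pass the threshold: BGL2, a cell wall glucanase gene, had -0.046 (adjusted p = 0.74) and UPA1 had 0.12 (adjusted p = 0.265). On the far side of ERV29, the chaperone gene ZUO1 had 0.033 and the biotin synthase gene BIO2 -0.057, and PXR1 on the other side of YOR1 had -0.039. The part of the yor1-1::hisG disruption in the ERV29 ratio was not tested.

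**Figure D3:**
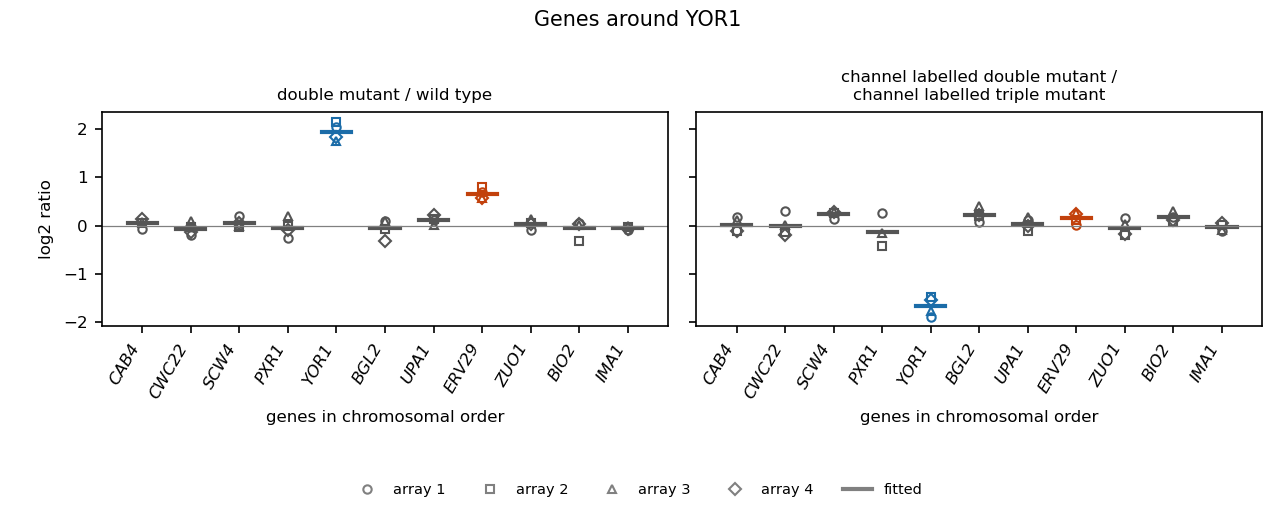
Log2 ratios (vertical axis) of the genes around YOR1 in chromosomal order, not to scale, on each array (symbols) with the fitted value (bar). On the arrays with wild type (left) ERV29 stands at 0.66 beyond 2 genes at -0.046 and 0.12. On the arrays labelled double and triple mutant (right) YOR1 lies at -1.67 and ERV29 at 0.16.

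The other receptors moved little and 0 of the other 6 passed the threshold. ERD2, the receptor that returns HDEL-tagged ER proteins, had 0.19 (adjusted p = 0.103) and RER1, which returns ER membrane proteins, had 0.11 (adjusted p = 0.195). ERV14, a receptor for membrane cargo, and its homologue ERV15 had 0.073 and 0.072. ERV41 and ERV46 encode the 2 subunits of one retrieval receptor and had fitted ratios of -0.059 and 0.030. ERV41 was the lowest of the receptors, at -0.13, 0.13, -0.10 and -0.13 on the arrays, so array 2 alone was above 0.

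The 9 genes of the COPI coat and its ArfGAPs also had fitted ratios above 0 in each case, with a median of 0.11. None of them passed the threshold. At an unadjusted p below 0.05, 2 of the 9 were higher, against 10.7% of all genes. Over the alternative settings 7 to 9 of these COPI genes were above 0. RET3, the zeta subunit, was the highest with 0.28, 0.45, -0.065 and 0.26 on the arrays and a fitted ratio of 0.23 (adjusted p = 0.0757). SEC27, the beta' subunit, had 0.23, SEC21, the gamma subunit, 0.12, and RET2, the delta subunit, 0.12. SEC26 (beta), SEC28 (epsilon) and COP1 (alpha) had 0.091, 0.079 and 0.037. The ArfGAP gene GCS1 had 0.11, with 0.12, 0.12, 0.092 and 0.11 on the arrays, the smallest spread of this role.

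GLO3, the other ArfGAP gene, was the lowest of this role at 0.022, from 0.20, -0.046, -0.018 and -0.050. Its positive sign came from array 1, and without that array the fitted ratio was -0.028. On array 3, 5 of the 9 COPI genes were below 0 and the median of the role was -0.013, whereas it was 0.12, 0.26 and 0.15 on arrays 1, 2 and 4. The median of the COPII genes, by contrast, was above 0 on all 4 arrays.

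Tethers and the Rab GTPase had a median of 0.079, and 0 of the 6 passed the threshold. TIP20, a subunit of the complex that tethers COPI vesicles at the ER, was the highest with 0.087, 0.34, 0.12 and -0.051 on the arrays and a fitted ratio of 0.12 (adjusted p = 0.402). Its complex partner DSL1 had 0.044. BUG1 and GRH1, a golgin-like protein and the yeast relative of the GRASP proteins, had 0.12 and 0.085. The long coiled-coil tether USO1 had 0.073. YPT1, the Rab GTPase of this step, was the lowest of all 40 genes at -0.14 (adjusted p = 0.482), with -0.32, 0.16, 0.02 and -0.43 on the arrays, a spread that covers 0.

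SNAREs and their recycling proteins were divided, with 5 of the 9 fitted ratios above 0, 4 below and a median of 0.021. SEC20, an ER SNARE that receives COPI vesicles, was the highest with 0.34, -0.002, 0.39 and 0.41 on the arrays. Its fitted ratio of 0.28 was larger than those of SEC23 and SEC13 but did not pass the threshold (adjusted p = 0.0818). The vesicle SNARE SEC22 had 0.11, and SEC18 and SEC17, the ATPase and the adaptor that take SNARE complexes apart, had 0.075 and 0.040. The ER SNAREs UFE1 and USE1 had 0.021 and -0.029. The SNAREs of fusion with the Golgi, BET1, SED5 and BOS1, had -0.027, -0.035 and -0.038. BOS1 was the lowest of this role, with -0.32, 0.28, -0.28 and 0.17, below 0 where the double mutant carried Cy5 and above 0 where it carried Cy3.

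The intervals rest on a spread shared by both comparisons. For all 37 genes that did not pass, the 95% confidence interval lay within 1.5-fold in either direction, with a median half-width of 0.15 on the log2 scale. Estimated array quality weights, lower for noisier arrays, were 0.19 to 0.68 here and 0.98 to 4.19 in the other comparison. The intervals may therefore be too narrow for the comparison with wild type. The widest reach upward was 0.49 for SEC27 and the widest downward -0.40 for YPT1. The dye term of the fit passed the threshold for 0 of the 40 genes and for 2 of all 6465 genes. That term is common to both comparisons, so a dye effect that differs between them would not show in it.

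**Figure D4:**
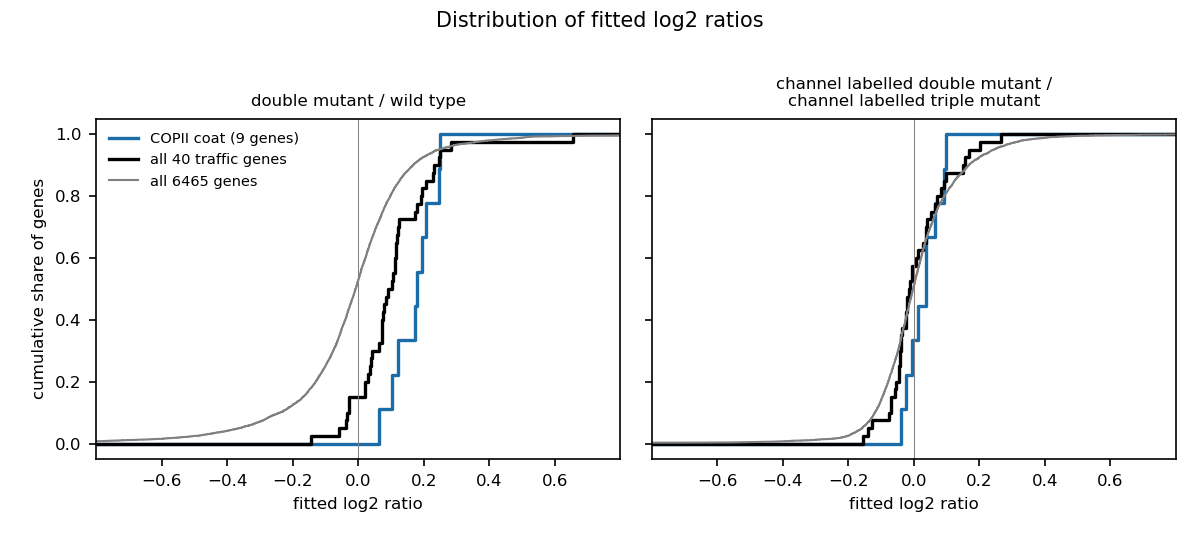
Cumulative share of genes (vertical axis) by fitted log2 ratio (horizontal axis) for the 9 COPII coat genes, all 40 vesicle traffic genes and all 6465 genes. Against wild type (left) the curve of the 40 genes lies to the right of that of all genes, with medians of 0.098 and -0.0077. In the channels labelled double and triple mutant (right) the curves overlap, with medians of -0.014 and -0.0027.

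In the second comparison, whose ratios have the channel labelled double mutant on top, 0 of the 40 vesicle traffic genes passed the threshold. Among all genes, 1.05% passed as higher and 0.541% as lower. The median log2 ratio was -0.014 for the 40 genes and -0.0027 for all genes. With median centring these medians stood farther apart, at -0.033 for the 40 genes and 0.041 for all genes, whereas against wild type that setting gave 0.073 and -0.0015. Of the 40 genes, 42.5% lay above 0, compared with 49.05% of all genes. At an unadjusted p below 0.05, 5 of the 40 genes were higher and 0 were lower, with backgrounds of 9.45% and 5.20%. Those 5 were SEC20, ERV46, GRH1, ERV29 and SEC22. Above 0 on every array were ERV29 and SEC22 and below 0 on every array was BET1, against 13.0% and 12.4% of all genes. Of all genes that passed, 68 of 103 were higher, which became 14 of 40 with the authors' processed signals and 5 of 21 with median centring.

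The 2 comparisons share the double mutant as a strain, so their values are set side by side without a test of the difference. ERV29 had signals of 1885, 1276, 1705 and 2134 units in the channel labelled double mutant, against 1865, 1183, 1419 and 1817 units in the channel labelled triple mutant. The log2 ratios were 0.016, 0.11, 0.27 and 0.23, and the fitted ratio was 0.16 (adjusted p = 0.294), where it was 0.66 against wild type. With the authors' processed signals it turned to -0.063. YOR1 had -1.67 on these arrays (adjusted p = 1.81e-05). The brighter ERV29 probe was above 0 on each of these arrays, while the second probe had -0.075 on array 1. Of the neighbours, SCW4 (0.24), BGL2 (0.22) and BIO2 (0.17) were also above 0 on all 4 arrays, each with a larger fitted ratio than ERV29, and none passed the threshold. UPA1 had 0.043 and ZUO1 -0.041.

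The COPII coat had a median of 0.038 in this comparison, with 6 of 9 genes above 0. With median centring the median was -0.016, with 3 of 9 above 0. SEC23 was the highest at 0.099 (adjusted p = 0.53), with -0.022, 0.23, 0.13 and 0.07 on the arrays, and -0.060 from the authors' processed signals. SEC13 had 0.065, with 0.14, -0.017, 0.14 and -0.007. SFB2 was the lowest of the coat at -0.038, with -0.15, 0.056, -0.09 and 0.03. SAR1 was measured on 3 arrays, since its spot on array 4 was marked as an outlier. Those arrays gave -0.13, 0.08 and 0.013 with a mean of -0.011, while the fitted ratio, which the dye term adjusts for the missing array, was 0.038. That fitted value is the coat median above and is counted among the 6 genes above 0.

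Among the receptors ERV46 was the highest with 0.33, 0.12, 0.37 and -0.01 on the arrays and a fitted ratio of 0.20 (adjusted p = 0.303). Its partner ERV41 had 0.0072. On array 2 ERV46 had 130 and 120 units and ERV41 74 and 79 units, low signals whose ratios the offset of 50 units draws toward 0. ERV14 was the lowest at -0.045, with -0.35, 0.22, -0.13 and 0.089. The ratios of ERV14 were negative where the channel labelled double mutant carried Cy5 and positive where it carried Cy3.

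In the COPI coat the fitted ratios lay between -0.069 for SEC27 and 0.083 for RET2, with a median of -0.013. RET2 had 0.12, 0.069, 0.17 and -0.028 on the arrays, and SEC27 had 0.28, -0.32, 0.024 and -0.26. Of the tethers and the Rab GTPase, GRH1 was the highest at 0.17 (adjusted p = 0.184), with 0.44, 0.045, 0.29 and -0.10, and TIP20 was the lowest at -0.16 (adjusted p = 0.46), with -0.39, 0.12, -0.42 and 0.062. GRH1 and TIP20 thus each had 1 dye orientation that lay farther from 0 than the other. On array 2, however, GRH1 had 65 and 63 units and RET2 79 and 75 units in the 2 channels. Those signals lie near the offset of 50 units added before loess, which draws ratios toward 0. Over the alternative settings the fitted ratio ran from 0.0705 to 0.52 for GRH1 and from 0.038 to 0.40 for RET2.

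Among the SNAREs, SEC20 had a fitted ratio of 0.27 (adjusted p = 0.188), the highest of the 40 genes as labelled and the lowest if the labels were exchanged. Its values on the arrays were 0.36, 0.00, 0.66 and 0.048, with the large ratios on the arrays where the channel labelled double mutant carried Cy5. SEC22 had 0.15, from 0.22, 0.028, 0.29 and 0.065. UFE1 was the lowest of the SNAREs at -0.14 (adjusted p = 0.405), with -0.16, -0.16, -0.26 and 0.017.

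These 4 arrays split by dye. Over all genes, arrays of the same orientation correlated at 0.789 and 0.735, and arrays of opposite orientation between -0.072 and 0.341, whereas the arrays with wild type correlated between 0.284 and 0.539. The counts in this comparison depended on the setting. With array quality weights, 5 of the 40 genes passed as higher (SEC20, ERV46, GRH1, ERV29 and SEC22) and 2 as lower (TIP20 and UFE1). Of all 6465 genes, 2050 passed in either direction with those weights. On the 4 arrays alone, 4 passed as higher and 1 as lower, against 1250 of all genes. Without array 4 of the comparison with wild type, SEC20 and ERV46 passed as higher (adjusted p = 0.0241 and 0.0331), against 472 of all genes. In each of these settings a larger share passed among all genes than among the 40. All 40 intervals lay within 1.5-fold, and the widest reached 0.46 for SEC20 and -0.39 for YPT1.

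The probes of most genes gave similar ratios, although the largest differences were as large as many of the ratios themselves. In the comparison with wild type their means had the same sign for 36 of 40 genes and differed by a median of 0.020, at most by 0.094 for RET2. In the comparison labelled double and triple mutant the sign was the same for 35 of 40 genes, with a median difference of 0.024 and at most 0.096 for GCS1. The probes share the RNA and the array, so this compares hybridisation and not samples.

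**Figure D5:**
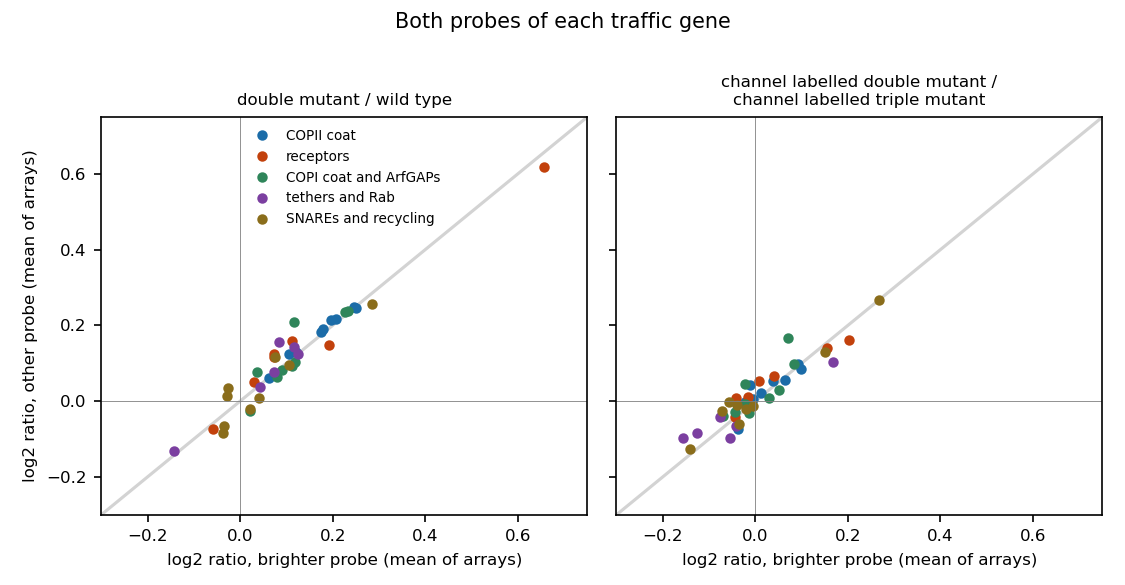
Mean log2 ratio over the arrays from the brighter probe of each of the 40 genes (horizontal axis) and from its other probe (vertical axis), coloured by role, with the line of equality. ERV29 lies apart at 0.66 and 0.62 in the comparison with wild type (left).

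A further 45 genes of the same pathway were described for context: 11 regulators of coats and fusion, 8 membrane proteins of vesicles, 8 p24 proteins, 10 TRAPP subunits and 8 COG subunits. In the comparison with wild type 1 passed as higher and 1 as lower, where all genes gave 3.23% and 4.97%. Their median was 0.029, and 27 of 45 (60%) were above 0, compared with 47.3% of all genes. The median was -0.0049 for the regulators, 0.073 for the vesicle membrane proteins, -0.034 for the p24 proteins, 0.067 for TRAPP, the complex that activates Ypt1, and 0.0043 for COG, the tether of traffic within the Golgi. Between the channels labelled double and triple mutant 0 of the 45 passed, and the median was -0.029. At an unadjusted p below 0.05, 0 were higher and 2 lower, against backgrounds of 9.45% and 5.20%.

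Both genes that passed encode p24 proteins, which form complexes that help to load cargo into COPII vesicles. ERP1 fell 2.27-fold, with log2 ratios of -1.23, -1.35, -1.27 and -0.89 and a fitted ratio of -1.19 (SE 0.09, adjusted p = 0.000406). It kept that call in all 23 alternative settings. ERP2 had 0.29, 0.17, 0.14 and 0.31 and a fitted ratio of 0.23 (adjusted p = 0.043), a call lost in 17 of 23 settings. The other p24 genes had fitted ratios between -0.17 for ERP5 and 0.050 for ERV25, and none of these 6 passed the threshold. In the channels labelled double and triple mutant ERP1 had 0.052 (adjusted p = 0.873).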

How the data were processed

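The authors deposited scanner output of each array, with mean spot intensity, local background intensity and processed intensity in both dyes and 0 or 1 flags for each spot. Per the file headers, the software was Feature Extraction of Agilent, version 10.7.3.1. All 8 arrays lay on 1 slide and were scanned together, so slide and scan do not differ between the comparisons. A table of normalized log ratios that the authors deposited has 8 columns that match no array's labels, and it was not used.

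Mean intensities were corrected with normexp (offset 50) and loess within each array in limma 3.58.1 (R 4.3.3). Control spots had weight 0, and outlier spots were left out. Of 13092 probes, 12872 were well above background in at least 4 of 16 channel measurements, and the brighter probe stood for its gene (6465 of 6546 genes). Log2 ratios were turned so that the channel labelled double mutant is the numerator. Signals quoted per channel are the values after normexp and loess. A single fit of the 8 arrays held 1 term for each comparison and a common dye term (5 residual degrees of freedom), with moderated tests adjusted by Benjamini-Hochberg over all genes. Since both comparisons share that spread, the arrays of one affect the calls of the other. Arrays carry no read depth, and their number limits the precision.

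The 40 genes, their roles and the 45 related genes were chosen with earlier results of these data known, so lists are described by counts and medians and not tested. All 40 may be named. Per-array values are given for genes that passed and for the highest and lowest of each role in each comparison, with a few others where their spread is described. Related genes are named where they passed. Replicate numbers gave correlations of deviations between -0.175 and 0.203, and the main fit did not pair arrays by them. After the dye term, residuals of same-numbered arrays in the 2 comparisons correlated at -0.693, 0.017, -0.62 and -0.589 for replicates 1 to 4. The dye term common to both comparisons by itself makes such residuals correlate negatively, so these values cannot show whether the arrays are independent. The tests take the arrays as independent. The fit was also run on simulated data with independent noise, equal on all arrays, and a common dye term. That run cannot check departures from these conditions.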

Additional observations from a re-analysis of the deposited data

Results flagged for a closer look

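In 5 of 81 sets of 4 arrays, 1 array stood far from the other 3 by Dixon's test, and chance gives about 1 in 20. All 5 were in the comparison with wild type. SEC31 had a log2 ratio of -0.061 on array 4, while the other 3 arrays gave 0.139 to 0.172. ERV41 had 0.125 on array 2, against -0.13 to -0.102 elsewhere. SEC28 had 0.339 on array 2, with -0.028 to 0.016 on the others. GLO3 had 0.201 on array 1 and -0.05 to -0.018 on the others. SEC20 had -0.002 on array 2, whereas the other arrays gave 0.342 to 0.408. The causes were not tested.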

How the results depend on the processing

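The 9 COPII coat genes were above 0 against wild type in all 23 alternatives, 32 to 36 of the 40 genes were, and the median of the 40 stayed between 0.073 and 0.12. The count of the 40 genes that passed as higher was 3. It was 0 with the authors' processed signals, with median centring and on the 4 arrays alone, and 1 with a normexp offset of 0, without background correction, with the dimmer probe, without the dye term, with array quality weights and with dye-swap pairs averaged. Leaving out 1 array gave 1 to 5, the 5 without array 4 of that comparison. All genes that passed numbered 530, against 40 with processed signals, 54 with median centring, 25 on the 4 arrays alone, 277 with weights and 202 (without array 1) to 825 (without array 4) with 1 array left out.

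Between the channels labelled double and triple mutant, 0 of the 40 passed in either direction. On the 4 arrays alone 4 were higher and 1 lower, with weights 5 and 2, and with 1 array left out 0 to 2 and 0. All genes numbered 103, against 40 with processed signals, 21 with median centring, 300 with scale normalization, 1250 on the 4 arrays alone, 2050 with weights, 26 with pairs averaged and 23 to 472 with 1 array left out. The median of the 40 was 0.039 with processed signals and -0.026 to -0.0019 with 1 array left out.

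The replicate block, in place of the dye term, left 1 of the 40 genes higher against wild type, with 244 of all genes, and 40 of all genes in the second comparison, where no gene of the 40 passed. The main fit did not pair arrays by these numbers.

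Some genes near 0 changed sign. Against wild type BOS1 turned to 0.064 with processed signals, and to 0.024 and 0.0093 without arrays 1 and 3, in a range of -0.11 to 0.024 with 1 array left out. GLO3 turned to -0.0083 with median centring, -0.0019 with both probes averaged, -0.025 with the dimmer probe and -0.028 without array 1, in a range up to 0.060. Between the labelled mutants, processed signals gave -0.060 for SEC23, 0.035 for SFB2, 0.054 for ERV14 and -0.063 for ERV29. ERV14 was 0.033 without array 1 (range from -0.10), and SEC27 0.022 and 0 without arrays 2 and 4 (range from -0.20). On the processed signals the 40 genes spread more on array 1 of the second comparison, with an SD of 0.52 against 0.22 after loess, and SEC13 there had -1.11 against 0.14. The causes were not tested.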
